A study of Rattus norvegicus with 12 samples.

Results

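Pre-mRNA splicing factor genes were examined in cultured rat preadipocytes, the stromal cells of adipose tissue that can become fat cells. The genes were chosen by name: every array probe set annotated with exactly 1 symbol was taken if that symbol began with Srsf, Hnrnp, Sf3a, Sf3b, Snrp, Prpf or U2af, and Pnisr, Tra2a, Tra2b, Sfpq, Nono, Ptbp1, Scaf1 and Puf60 were added. This gave 59 genes with 82 probe sets, out of 10411 genes with 12783 such probe sets on the array. Each gene was represented by its probe set with the highest mean log2 signal over all arrays. Of the 59 genes, 58 passed the filter on low signal, a geometric mean signal of 56.3, and the exception was Snrpn.

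The cells came from male Brown Norway rats kept behind a barrier and free of specific pathogens, 3 of them 3 months old (young) and 3 of them 30 months old (old). Perirenal fat, which surrounds the kidney, and epididymal fat, which lies beside the testis, were taken from the same 6 rats, so that 12 arrays formed 4 groups of 3, 1 for each age and depot. The labels name no allele or drug for any group. After collagenase digestion the cells were plated overnight, replated and grown to confluence before RNA was isolated, and the labelled RNA was copied from a primer that binds the poly(A) tail. The comparisons were perirenal against epididymal cells, old against young cells, and the age difference in one depot against that in the other. The 3 arrays per group limited the precision of every value.

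Splicing removes introns from a transcript and joins its exons, and the spliceosome that does so is assembled anew on each intron from small nuclear ribonucleoproteins (snRNPs) and many further proteins. The U1 snRNP recognises the 5' splice site, U2AF reads the polypyrimidine tract before the 3' splice site, and the SF3a and SF3b complexes help the U2 snRNP to engage the branch point. SR proteins, named for their serine and arginine repeats, mostly promote the use of the exons they bind, while heterogeneous nuclear ribonucleoproteins (hnRNPs) often oppose them, and shifts between both kinds change which exons a cell keeps. In fat cell precursors, alternative exons of known regulators of adipogenesis are chosen by such factors.

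Promoter sequences of 300 bases, 250 before and 50 after the annotated start, were taken from RefSeq for build GRCr8 and matched 55 of the 59 genes, with 59 promoters in all. The letters CCGGAA, the core bound by ETS factors and 1 of 10 motifs searched, or their reverse complement TTCCGG stood in 27 of the 59 promoters (45.8%), against 15% of all 33469 promoters of the same length and 17.7% of the 21851 promoters of protein-coding genes. The YY1-type motif GCCATTTTG, read on both strands, stood in 8.47% against 0.618% of all and 0.682% of protein-coding promoters. In the same order, the CCAAT box stood in 57.6% against 37.5% and 38%, and the GC box GGGCGG in 55.9% against 33.1% and 41.8%. The TATA box TATAAA stood in 10.2% against 14.2% and 13%. Members' promoters also held a median of 24 CG dinucleotides against 7 in all promoters and 11 in those of protein-coding genes. A match describes the letters in this window and does not show a binding site. Shown are the promoters of 1 snRNP gene that was higher in perirenal cells, 1 that was lower, and the gene with the one age call, with each CCGGAA or TTCCGG in capitals. Snrpb lies on the minus strand at chr3:137832430-137832729, Snrpb2 on the plus strand at chr3:150852584-150852883 and Pnisr on the plus strand at chr5:40192485-40192784.
Snrpb: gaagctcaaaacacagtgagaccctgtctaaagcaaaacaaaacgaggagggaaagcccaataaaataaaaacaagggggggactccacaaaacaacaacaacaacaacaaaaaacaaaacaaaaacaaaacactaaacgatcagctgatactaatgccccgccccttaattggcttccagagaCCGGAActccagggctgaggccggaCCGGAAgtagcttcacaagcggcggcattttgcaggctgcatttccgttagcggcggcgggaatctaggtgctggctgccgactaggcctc
Snrpb2: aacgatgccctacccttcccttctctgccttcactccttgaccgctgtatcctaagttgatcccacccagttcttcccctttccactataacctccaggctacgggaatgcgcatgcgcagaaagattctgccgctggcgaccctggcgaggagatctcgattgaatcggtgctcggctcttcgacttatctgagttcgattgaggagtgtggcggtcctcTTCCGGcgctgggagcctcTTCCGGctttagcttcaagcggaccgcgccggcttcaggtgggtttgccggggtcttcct
Pnisr: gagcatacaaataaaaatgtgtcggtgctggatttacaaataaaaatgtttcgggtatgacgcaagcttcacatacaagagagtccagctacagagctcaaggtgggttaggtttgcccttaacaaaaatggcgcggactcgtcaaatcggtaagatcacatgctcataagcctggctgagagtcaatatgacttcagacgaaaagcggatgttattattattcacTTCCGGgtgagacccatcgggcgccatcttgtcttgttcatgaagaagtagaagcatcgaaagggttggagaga
Snrpb and Snrpb2 each carry 2 cores and Pnisr carries 1, while only 8 of the 59 promoters held more than 1 core. The ETS core was found among genes of either direction, since it was held by 3 of the 9 matched genes that were higher in perirenal cells, by 6 of the 10 that were lower, and by 16 of the 35 that did not pass, all as described below for the depot difference.

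Depot was tied to other properties of the arrays. Beta-actin is read by probe sets at both ends of its transcript, and its 3' to 5' ratio, which grows as labelled copies fall short, lay between 0.902 and 1.11 for the 6 perirenal arrays and between 5.25 and 55.0 for the 6 epididymal arrays. The control RNA dap, of bacterial origin, gave at most 2.3 in perirenal samples and at least 492.6 in epididymal samples. The depot and these 2 measures separated the same arrays, so they cannot be told apart here. Stromal and fibroblast markers were present in both depots, with 15 of 16 on the array and a summed signal of 121263 to 139362 in perirenal and 179955 to 212368 in epididymal cells. Of 14 tested, 1 rose and 9 fell in perirenal cells, and Dlk1 lay below the filter level. Counts of markers stand against 30.2% of all probe sets that were higher and 21.4% that were lower in perirenal cells at an adjusted p under 0.05. The summed signal of 11 macrophage markers was 1844 to 3973 against 951 to 1825, and of 9 tested 6 rose and 0 fell in perirenal cells, with Ptprc and Itgam below the filter level, whereas the labels state that such markers were alike between depots and ages. Smooth muscle markers summed to 8436 to 15147 against 20462 to 33519, with 6 of 6 lower in perirenal cells, and mesothelial markers (7 of 9 on the array) to 1192 to 1687 against 2317 to 4093, with 2 of 4 tested lower. The mesothelial markers Krt18, Krt19 and Calb2 lay below the filter level. Of these, Calb2 went the other way without overlap, at 79.5 to 184.8 in perirenal and 4.4 to 56.5 in epididymal cells. Of 6 endothelial markers 5 were below the filter level, and they summed to 253.5 to 403.1 against 165.5 to 345.8. Whether these cell types took part in the differences below was not tested, and in cultures measured as a whole a lower signal from fewer cells of a type cannot be told apart from less RNA per cell.

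Between depots, splicing factor genes moved in both directions in nearly equal number. Averaged over ages, 10 of 58 were higher in perirenal cells, led by Hnrnpul1, Prpf40b, Hnrnpf, U2af2, Snrpb and Prpf8, and 11 were lower, among them Prpf3, Hnrnpu, Prpf38a and Sf3b1 (limma, Benjamini-Hochberg adjusted p under 0.05 over 11106 probe sets). One of the 11, Scaf1, passed the filter on low signal only through its epididymal arrays, and the size of its difference was not well measured. Of all probe sets tested, 30.2% were higher and 21.4% lower, and 51.7% passed in either direction. The share of splicing factor genes that passed, 36.2%, was below this background and below the 49.6% of all genes when each is likewise represented by its brightest probe set. The median log2 difference (perirenal minus epididymal) of the 58 genes was -0.03 against 0.08 for all probe sets, and the median size of the difference 0.25 against 0.41. The splicing factor genes were brighter than this background, with a median log2 signal of 10.5 against 8.5. With the lowest 50% of signal left out, the median difference of all probe sets was -0.02, and 48.7% of their calls were higher. In that refit 20 of 57 splicing factor genes passed, against 50.6% of all probe sets. With a difference above 2-fold 3 genes passed, namely Hnrnpul1, Prpf40b and the dim Scaf1, against 16.1% of all probe sets. The 6 perirenal and 6 epididymal arrays did not overlap for 6 genes that were higher and 4 that were lower, against 17.0% and 10.8% of all probe sets. The split depended on the scaling between arrays: with each array centred on its median 6 genes were higher and 29 lower, and with quantile normalisation 13 and 12. Over all probe sets the share of calls that were higher was 58.5% as deposited, 46.9% after quantile normalisation and 31.6% after centring, which shifted the median difference from 0.08 to -0.20. With the beta-actin ratio of each array as a covariate no splicing factor gene passed, and 2.47% of all probe sets did.

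**Figure D1:**
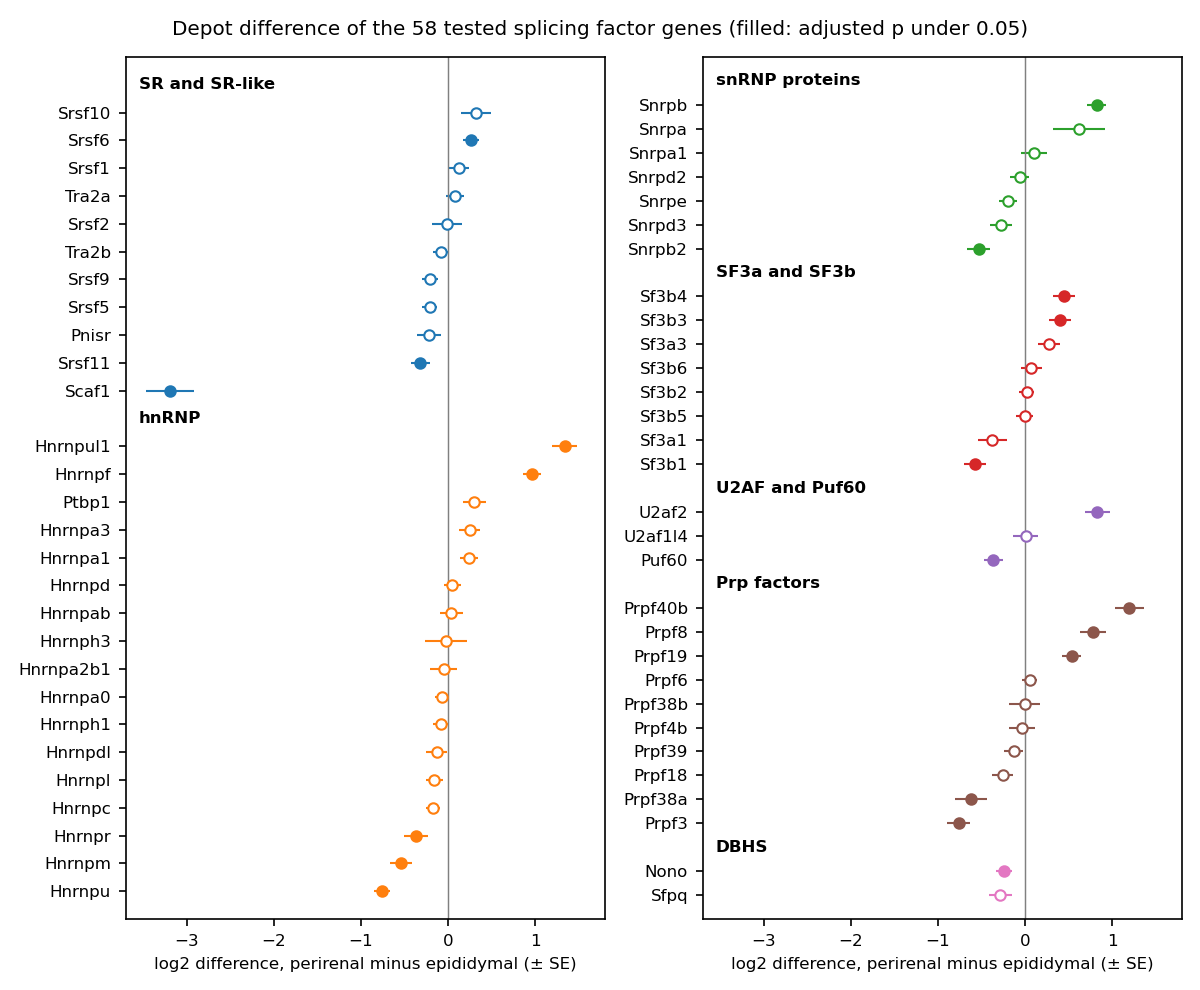
Log2 difference between perirenal and epididymal cells (x axis, with SE bars from limma) for the 58 tested splicing factor genes, grouped by role. Filled points passed at an adjusted p under 0.05: 10 lie to the right of 0, 11 to the left, and each group of 3 or more genes has both. The point of Scaf1 rests on perirenal signals below the filter level, so its distance from 0 is not well measured.

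Among 11 SR and SR-like genes 1 rose in perirenal cells, 2 fell and 8 did not pass. Scaf1, which codes for an SR-related protein that binds the tail of RNA polymerase II, had signals of 32.4, 40.7 and 31.6 in young and 30.4, 23.0 and 11.3 in old perirenal cells, and of 262.4, 193.0 and 272.2 in young and 169.0, 245.7 and 333.1 in old epididymal cells. Every perirenal value was below the filter level and below the lower quartile of its array (57.9 to 61.4), and every epididymal value was above it. The fitted log2 difference of -3.19 ± 0.28 (SE, adjusted p = 2.00e-06) therefore rests on perirenal signals too low to be measured well, and no fold is given. Srsf6, an SR protein that binds exonic enhancers, ranged from 2484 to 3004 around a median of 2707 in perirenal and from 1994 to 2629 around 2174 in epididymal cells. It rose by 0.26 ± 0.10 (adjusted p = 0.034), but the value was -0.021 with arrays centred on their medians, and its other probe set passed in the opposite direction (-0.65). Srsf11, an SR-rich protein of the early spliceosome, ranged from 740.7 to 1033 in perirenal and 1029 to 1455 in epididymal cells and fell by 0.32 ± 0.11 (adjusted p = 0.0249). The depots overlapped for both of these genes, and both calls were lost when single rats were left out (largest adjusted p 0.131 and 0.103). The splicing activators Tra2a and Tra2b, which bind GAA-rich exonic sequences, did not pass, with differences of 0.08 and -0.08. Pnisr, an SR-rich protein of nuclear speckles, had -0.22 ± 0.13 (adjusted p = 0.184) averaged over ages. The differences of the 8 that did not pass lay between -0.22 for Pnisr and 0.32 for Srsf10.

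Of 17 hnRNP genes 2 rose, 3 fell and 12 did not pass. Hnrnpul1, a relative of hnRNP U that also takes part in the response to DNA breaks, had signals of 862.5, 843.0 and 756.2 in young and 730.1, 779.0 and 681.8 in old perirenal cells, and of 385.5, 422.0 and 292.4 in young and 335.3, 183.9 and 280.2 in old epididymal cells. The lowest perirenal array was above the highest epididymal one, and the gene was 2.53-fold higher in perirenal cells (log2 1.34 ± 0.15, adjusted p = 1.24e-05). Hnrnpf, which binds G-rich stretches near splice sites, had signals of 1907, 1874 and 1886 in young and 1712, 1881 and 2009 in old perirenal cells, against 853.9, 1156 and 777.7 in young and 1102, 987.9 and 956.8 in old epididymal cells. It rose 1.95-fold without overlap (0.96 ± 0.11, adjusted p = 1.24e-05), and the perirenal arrays lay closer together than the epididymal ones. Hnrnpu, a large hnRNP that also binds chromatin at scaffold attachment regions, went the other way, from 2041 to 2863 in perirenal and from 4063 to 4974 in epididymal cells. It was 1.69-fold lower in perirenal cells (-0.76 ± 0.09, adjusted p = 2.94e-05), again without overlap, while its 2 other probe sets had 0.26 and 0.30 and did not pass. Hnrnpm, a binder of GU-rich RNA, ranged from 620.7 to 856.4 in perirenal and 751.5 to 1277 in epididymal cells and fell by 0.54 ± 0.13 (adjusted p = 0.00311). Hnrnpr fell by 0.37 ± 0.14 (adjusted p = 0.0378), a call lost when single rats were left out (largest adjusted p 0.171). Ptbp1, the polypyrimidine tract binding protein that represses many exons, had 0.30 ± 0.14 (adjusted p = 0.0763), with perirenal signals of 3115 to 4717 and epididymal signals of 2358 to 4235 that overlapped. The 12 that did not pass ranged from -0.18 for Hnrnpc to 0.30 for Ptbp1.

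Among the snRNP protein genes 7 of 8 were tested, of which 1 rose, 1 fell and 5 did not pass. Snrpb codes for the Sm protein B, part of the ring around the small nuclear RNAs, and had signals of 3611, 3955 and 3755 in young and 3381, 3660 and 3942 in old perirenal cells against 1721, 2100 and 2502 in young and 2526, 1887 and 2005 in old epididymal cells. It was 1.77-fold higher in perirenal cells without overlap (0.82 ± 0.11, adjusted p = 4.55e-05). Snrpb2, the U2 protein B'', had signals of 359.4 to 538.2 in perirenal and 466.9 to 722.1 in epididymal cells, where 5 of 6 epididymal arrays lay above all perirenal ones, and fell by 0.53 ± 0.13 (adjusted p = 0.00509). Both genes carry 2 ETS cores in the promoters printed above. Snrpd3, the Sm protein D3, had -0.28 (adjusted p = 0.0841), with 1104 to 2005 in perirenal and 1262 to 1985 in epididymal cells. Snrpa, the U1 protein A, had a difference of 0.62 with a wide error of 0.30 (adjusted p = 0.0953). Snrpn, the Sm protein N best known from neurons, was below the filter level and was not tested, with signals of 59.5 to 104.1 in perirenal and 12.1 to 47.4 in epididymal cells.

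Genes for recognition of the branch point and the 3' splice site also split. Of 8 SF3a and SF3b genes 2 rose, 1 fell and 5 did not pass. Sf3b1, the largest SF3b subunit, which clasps the branch point helix, had signals of 1444, 1342 and 1368 in young and 1614, 1479 and 985.8 in old perirenal cells, against 2141, 2571 and 2203 in young and 1905, 1971 and 1480 in old epididymal cells. Its young groups were far apart and its old groups overlapped, and averaged over ages this probe set fell by 0.57 ± 0.13 (adjusted p = 0.00222). The gene's other probe set, also bright, rose by 1.04 ± 0.14, so the direction for Sf3b1 turned with the probe set. Sf3b4, the subunit that contacts RNA just before the branch point, ranged from 1468 to 2152 in perirenal and 1047 to 1535 in epididymal cells and rose by 0.45 ± 0.13 (adjusted p = 0.00981). Sf3b3, a scaffold subunit of the same complex, ranged from 1748 to 2311 and from 1153 to 1855 and rose by 0.40 ± 0.13 (adjusted p = 0.0171). Both of these rises were lost when arrays were centred on their medians. The 5 others ranged from -0.37 for Sf3a1 to 0.28 for Sf3a3. Of the 3 genes in the U2AF group, U2af2, the subunit that binds the polypyrimidine tract, had signals of 2498, 2170 and 2380 in young and 2152, 2309 and 2624 in old perirenal cells against 953.1, 1368 and 1420 in young and 1196, 1200 and 2011 in old epididymal cells. It was 1.78-fold higher in perirenal cells without overlap (0.83 ± 0.14, adjusted p = 0.000423). Puf60, a relative of U2AF that binds uridine-rich tracts, moved oppositely, from 860.2 to 1065 in perirenal and from 1124 to 1532 in epididymal cells. It fell by 0.36 ± 0.11 (adjusted p = 0.0146) without overlap, and the call was lost without the third young or the third old rat (largest adjusted p 0.0837). U2af1l4, a paralog of the small U2AF subunit that reads the AG of the 3' splice site, had 0.01 ± 0.14 (adjusted p = 0.961), with signals of 219.2 to 355.1 in perirenal and 230.8 to 300.1 in epididymal cells.

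The 10 Prp genes held 3 rises and 2 falls. Prpf40b, a protein of the U1 snRNP, had signals of 473.8, 602.7 and 496.7 in young and 483.9, 547.8 and 975.1 in old perirenal cells against 302.8, 238.3 and 240.1 in young and 270.7, 264.3 and 206.0 in old epididymal cells. It was 2.29-fold higher in perirenal cells without overlap (1.19 ± 0.17, adjusted p = 7.92e-05), and the third old rat had the highest value. Prpf8, the large U5 protein at the heart of the catalytic spliceosome, ranged from 2217 to 2913 in perirenal and 1004 to 2080 in epididymal cells and rose by 0.78 ± 0.15 (adjusted p = 0.00096). Prpf19, the ubiquitin ligase of the complex that activates the spliceosome, rose by 0.53 ± 0.11 (adjusted p = 0.00172), and this rise too was lost when arrays were centred on their medians. Prpf3, a U4/U6 snRNP protein, had signals of 402.0, 430.2 and 433.0 in young and 377.3, 379.2 and 552.1 in old perirenal cells against 698.1, 811.8 and 773.6 in young and 633.8, 588.3 and 861.6 in old epididymal cells. It was 1.70-fold lower in perirenal cells without overlap (-0.76 ± 0.13, adjusted p = 0.000347) by this probe set, while a dim second one passed in the opposite direction (2.05 ± 0.17). The mean epididymal signal of that second one lay below the filter level, so it was tested only through its perirenal arrays. Prpf38a, needed for activation of the assembled spliceosome, fell by 0.62 ± 0.18 (adjusted p = 0.0127), and without the third old rat its adjusted p was 0.0709. The other 5 ranged from -0.26 for Prpf18 to 0.05 for Prpf6. Of the paraspeckle proteins, Nono had signals of 3194 to 4221 in perirenal and 3482 to 4816 in epididymal cells and fell by 0.24 ± 0.09 (adjusted p = 0.0386), a call lost with the rat as a fixed block (adjusted p = 0.0528) and when any of 4 rats was left out (largest adjusted p 0.195). Its partner Sfpq had -0.28 ± 0.13 (adjusted p = 0.0851).

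**Figure D2:**
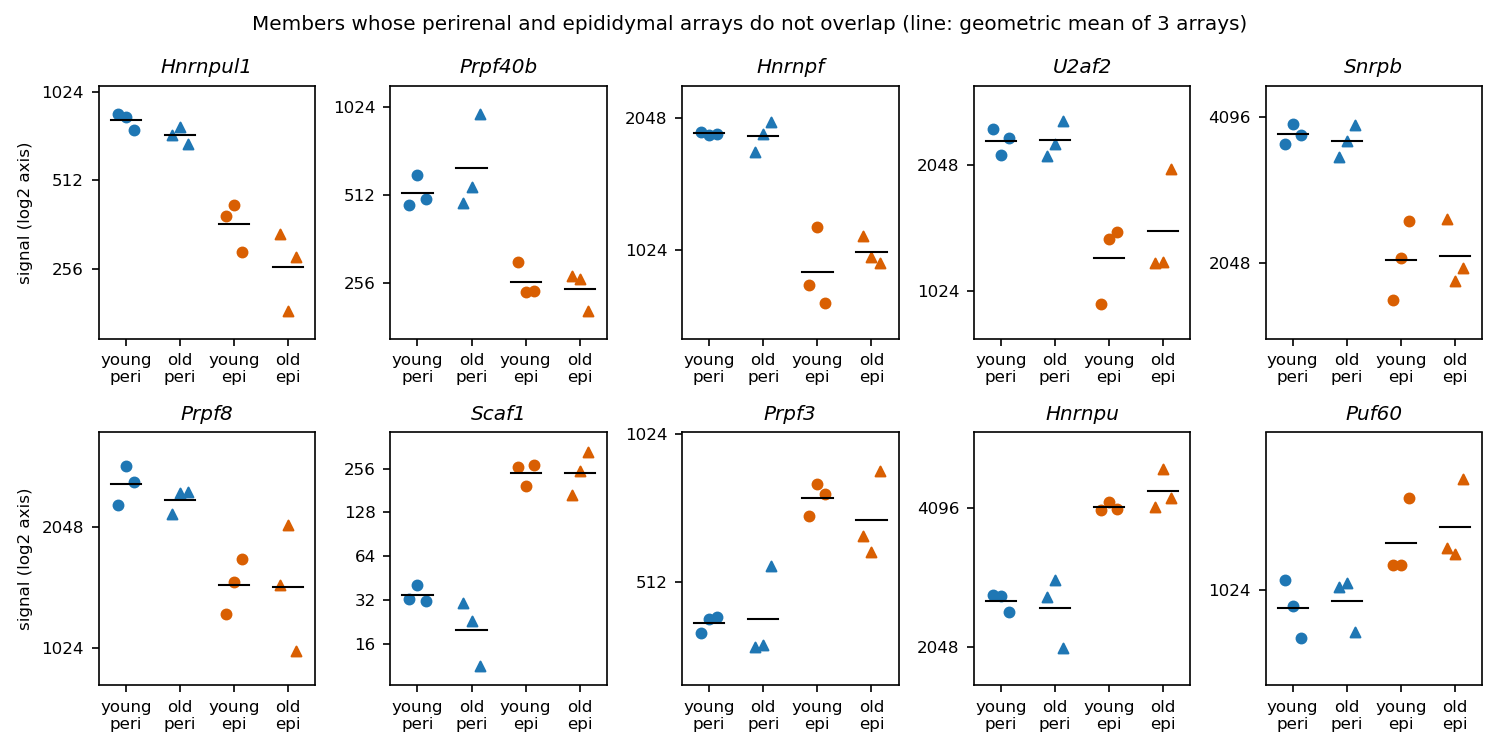
Deposited signal (y axis, log2 scale) on each array for the 10 splicing factor genes whose 6 perirenal (peri) and 6 epididymal (epi) arrays do not overlap; circles are young and triangles old rats, and lines are geometric means of 3 arrays. Hnrnpul1, Prpf40b, Hnrnpf, U2af2, Snrpb and Prpf8 are higher and Scaf1, Prpf3, Hnrnpu and Puf60 lower in perirenal cells at both ages. The perirenal signals of Scaf1 lie below the filter level.

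Within 1 age the largest depot differences recurred. In young rats 6 genes were higher in perirenal cells and 11 lower, against 20.0% and 14.9% of all probe sets. In old rats 8 were higher and 4 lower, against 19.2% and 12.5%. At both ages Hnrnpf, Hnrnpul1, Prpf40b, Prpf8, Snrpb and U2af2 passed as higher and Hnrnpm, Hnrnpu, Prpf3 and Scaf1 as lower, 10 of 58 genes against 22.6% of all probe sets. Of these genes, Scaf1 was tested only through its epididymal arrays, with perirenal signals below the filter level at both ages. All 21 genes that passed in the mean of the ages had the same sign in the young and the old difference, of which that mean is made. Hnrnpul1 differed by 1.18 ± 0.21 in young (adjusted p = 0.00101) and 1.5 ± 0.21 in old rats (adjusted p = 0.000292). Prpf40b differed by 1.01 ± 0.24 (adjusted p = 0.00576) and 1.38 ± 0.24 (adjusted p = 0.00106). Hnrnpf differed by 1.04 ± 0.15 and 0.88 ± 0.15, and Snrpb by 0.86 ± 0.15 and 0.78 ± 0.15. Among genes that were lower, Hnrnpu had -0.68 ± 0.13 in young and -0.84 ± 0.13 in old rats, and Prpf3 had -0.85 ± 0.18 and -0.67 ± 0.18. None of these differences passed the test of age by depot. Pnisr, Prpf39 and Sf3a1 passed as lower in young rats only, without passing in the mean, at -0.80 (adjusted p = 0.00611), -0.52 (adjusted p = 0.0208) and -0.65 (adjusted p = 0.0454), and in old rats they had 0.36, 0.26 and -0.09. With the rat as a fixed block Prpf38a passed in young rats (adjusted p = 0.0338), and Prpf38a (adjusted p = 0.0389), Sf3b1 (adjusted p = 0.0404) and Sf3b4 (adjusted p = 0.0462) passed in old rats. The same block added Sf3b4 in young rats (adjusted p = 0.0480) and Sf3a1 in the mean of the ages (adjusted p = 0.0484).

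Probe sets of the same gene disagreed. Of the 14 splicing factor genes with several tested probe sets, 4 had probe sets past the threshold in both directions (28.6%), against 18.8% of 1139 such genes over the array. None had all of its probe sets higher or all lower, against 12.9% and 3.86% of those genes. Hnrnpa1, which binds splicing silencers, had 0.24 (adjusted p = 0.068) for its brightest probe set, 1.30 ± 0.12 for the next (geometric mean signal 1000 against 405.2) and -0.76 ± 0.10 for the last (450.6 against 764.8). Prpf3 had -0.76 and, for a dim second probe set, 2.05 ± 0.17 (204.0 against 49.3). Since 49.3 is below the filter level, this second probe set was tested only through its perirenal arrays, and its difference was not well measured. The place of Prpf3 among the 4 genes rests on that call. Sf3b1 had -0.57 for one probe set and 1.04 ± 0.14 for the other, and both were bright, at 1357 against 2017 and 1754 against 853.9. Srsf6 had 0.26 and -0.65 ± 0.13. The second brightest probe set had the opposite sign to the brightest, whether or not either passed, in 12 of the 14 genes, a count that was not made for all genes. Others had one probe set that passed and one that did not, such as Sf3b2, an SF3b subunit, with 0.02 ± 0.09 and 2.27 ± 0.19, and Srsf2, an SR protein that reads exonic enhancers, with -0.01 ± 0.17 and 1.16 ± 0.19. Hnrnpu, -0.76 by its brightest probe set, had 0.26 ± 0.16 and 0.30 ± 0.21 by the other two, which did not pass. Over the 14 genes, brightest probe sets were higher in 1 and lower in 3, and the 18 further probe sets were higher in 9 and lower in 2. The same lean was seen over the array, where 51.9% of 1344 further probe sets were higher and 13.1% lower, against 26.2% and 27.7% of the brightest. Where each probe set lies on its transcript was not used here, and the part played by the 3' to 5' ratio in this disagreement was not tested.

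**Figure D3:**
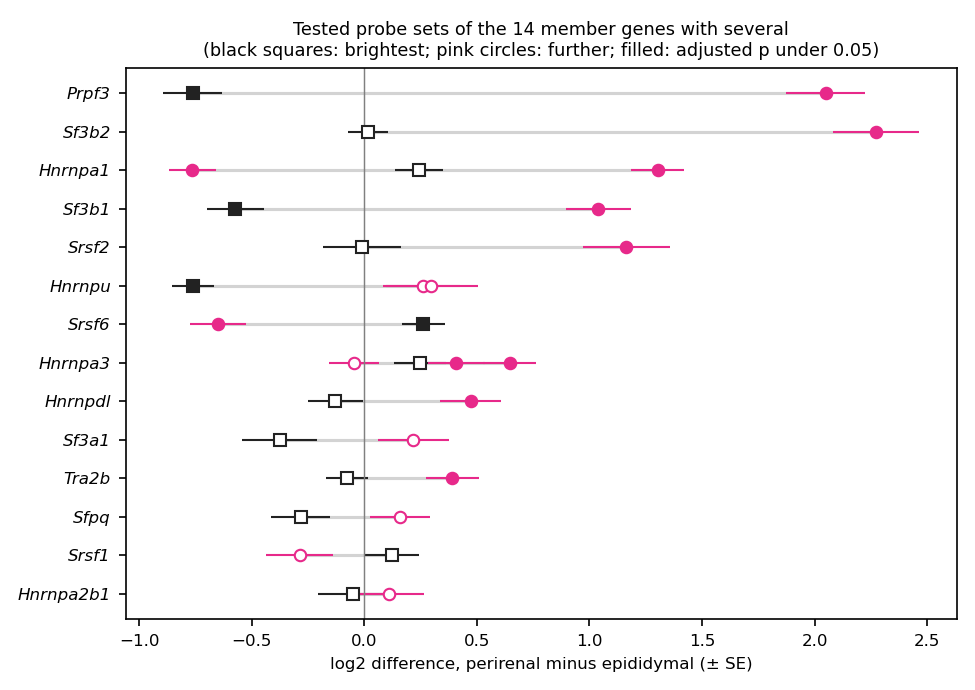
Log2 difference between perirenal and epididymal cells (x axis, with SE bars) for every tested probe set of the 14 splicing factor genes that have several. Black squares are the brightest and pink circles the further probe sets, filled where the adjusted p was under 0.05: Prpf3, Hnrnpa1, Sf3b1 and Srsf6 have filled symbols on both sides of 0. The pink circle of Prpf3 rests on a mean epididymal signal below the filter level, so its distance from 0 is not well measured.

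With age, 1 splicing factor gene passed, in epididymal cells. Pnisr had signals of 334.7, 370.8 and 311.8 in young and 156.4, 146.3 and 124.8 in old epididymal cells, and these did not overlap. In perirenal cells it had 171.7, 206.0 and 207.9 in young and 226.6, 160.3 and 165.9 in old rats, and these overlapped. The age difference (old minus young) was -1.25 ± 0.19 in epididymal cells (adjusted p = 0.0388) and -0.10 ± 0.19 in perirenal cells (adjusted p = 0.999). One gene of 58 stands against 0.054% of all probe sets lower and 0.018% higher in old epididymal cells. The call was near the threshold: it was lost after quantile normalisation (-1.10, adjusted p = 0.0791) and when any of 5 of the 6 rats was left out, with adjusted p from 0.047 to 0.257 and differences from -1.32 to -1.16 over the 6. Pnisr's second probe set was below the filter level, with a geometric mean of 42.4 on perirenal and 35.5 on epididymal arrays. The beta-actin ratio was 10.3, 5.25 and 38.2 on the young and 7.0, 55.0 and 13.9 on the old epididymal arrays, and these ranges overlapped. With that ratio as a covariate the call was kept (adjusted p = 0.0451), and without the 2 arrays of the highest ratio it was lost. The part played by the ratio was not tested.

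Further age differences did not pass. Prpf39, a U1-associated protein, had 506.9, 400.8 and 462.0 in young and 260.6, 277.7 and 232.1 in old epididymal cells, without overlap (-0.83 ± 0.16, adjusted p = 0.108). In perirenal cells it had 281.9, 328.1 and 344.3 in young and 329.4, 308.5 and 282.2 in old rats (-0.05 ± 0.16). Prpf4b, a kinase that phosphorylates spliceosome proteins, had 404.2, 465.0 and 518.7 in young and 227.9, 325.6 and 399.4 in old epididymal cells (-0.57 ± 0.21, adjusted p = 0.468). These 3 genes had the smallest p among those lower in old epididymal cells. On the other side, the hnRNPs Hnrnpa0 and Hnrnpd, both binders of AU-rich RNA, had 0.32 ± 0.11 (adjusted p = 0.433) and 0.39 ± 0.14 (adjusted p = 0.490), and Sf3b6, the subunit that touches the branch point adenosine, had 0.27 ± 0.17 (adjusted p = 0.695). At an unadjusted p under 0.05, 2 genes were higher and 5 lower in old epididymal cells, against 3.37% and 4.98% of all probe sets. The young and old epididymal arrays did not overlap for Hnrnpa0 and Hnrnpd, higher in old, and for Nono, Pnisr, Prpf39, Prpf4b and Sf3b1, lower in old, against 4.69% and 5.93% of all probe sets.

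In perirenal cells no splicing factor gene passed, as was so for all probe sets (0%). At an unadjusted p under 0.05, 3 genes were higher in old cells and none lower, against 2.72% and 1.66% of all probe sets. These were Sf3a1 (0.57 ± 0.24), Snrpd3 (0.42 ± 0.18) and Tra2a (0.33 ± 0.15), each with an adjusted p of 0.999. Sf3a1, a U2 snRNP subunit, had signals of 204.5, 181.2 and 212.5 in young and 200.7, 321.9 and 396.2 in old perirenal cells, which overlapped. Snrpd3 had 1228, 1104 and 1189 in young and 1327, 1464 and 2005 in old perirenal cells, without overlap. Lower values in old cells with the smallest p were those of Scaf1 (-0.80 ± 0.39), Sf3b5 (-0.22 ± 0.14) and Hnrnpa3 (-0.24 ± 0.17), where Scaf1 lay below the filter level at both ages. Old and young perirenal arrays did not overlap for Snrpa1, Snrpd3 and Tra2a, higher in old, and Hnrnpm, Scaf1 and Sf3b5, lower in old, against 6.1% and 7.5% of all probe sets. Averaged over depots, with the rat as the unit, no gene passed, against 0.018% of all probe sets, and at an unadjusted p under 0.05, 1 gene was higher and 4 lower, against 2.48% and 3.35%. Pnisr had -0.67 ± 0.16, Prpf39 -0.44 ± 0.12 (both adjusted p = 0.803) and Prpf4b -0.40 ± 0.16, and Snrpd3 and Snrpa1 had 0.29 ± 0.12 and 0.29 ± 0.14, with Hnrnpd at 0.22 ± 0.11 (these 4 adjusted p = 0.844).

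The test of age by depot, the age difference in perirenal minus that in epididymal cells, called no splicing factor gene and none of all probe sets (0%). At an unadjusted p under 0.05, 2 genes were above 0 and 1 below, against 3.30% and 2.22% of all probe sets. Pnisr had the smallest p, at 1.16 ± 0.27 (unadjusted p = 0.00076, adjusted p = 0.839), followed by Prpf39 at 0.78 ± 0.22 (adjusted p = 0.846) and Nono at 0.35 ± 0.18 (adjusted p = 0.906). Below 0 were Hnrnpa0 at -0.40 ± 0.15 (adjusted p = 0.855), Hnrnpd at -0.33 ± 0.20 (adjusted p = 0.909) and Scaf1 at -0.80 ± 0.55 (adjusted p = 0.924), the last from perirenal signals below the filter level. The median age difference over the 58 genes was -0.02 in perirenal and -0.01 in epididymal cells, against -0.01 and -0.01 for all probe sets.

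**Figure D4:**
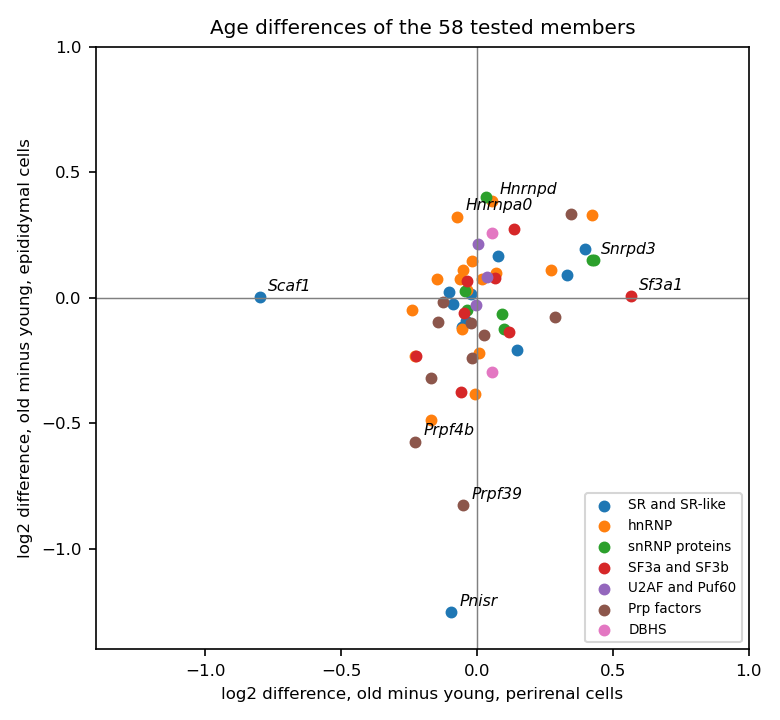
Age difference (old minus young, log2) of the 58 tested splicing factor genes in perirenal (x axis) and epididymal cells (y axis), coloured by role. Pnisr, at -0.10 and -1.25, lies farthest below the rest, followed by Prpf39 at -0.05 and -0.83.

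**Figure D5:**
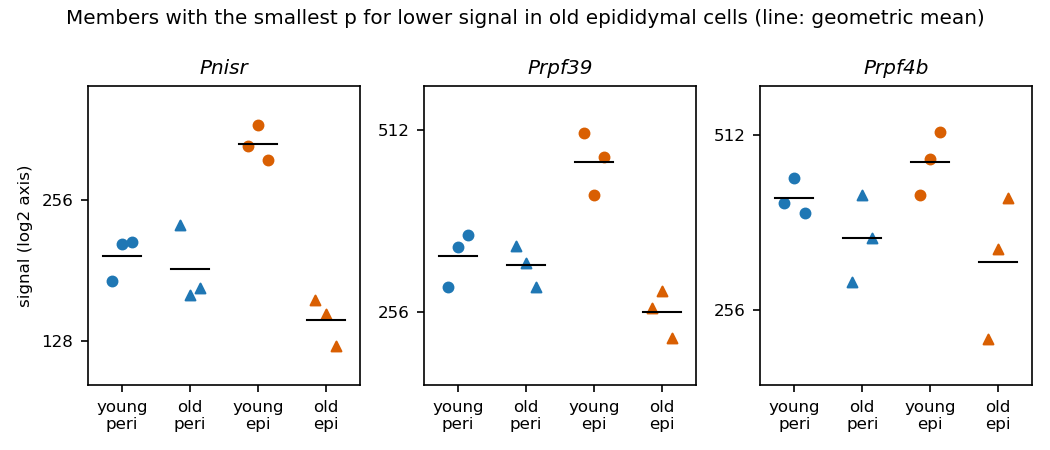
Deposited signal (y axis, log2 scale) on each array for the 3 genes with the smallest p for lower signal in old epididymal cells; circles are young and triangles old rats, lines are geometric means of 3 arrays. Young epididymal arrays lie above old ones in all 3 panels, at 311.8 to 370.8 against 124.8 to 156.4 for Pnisr, and perirenal arrays of both ages overlap.

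Other genes of the splicing machinery were taken from a list of 112, of which 88 were on the array and 87 were tested. Between depots 12 rose in perirenal cells, 22 fell and 53 did not pass, with a median of -0.01. The share that passed was 39.1%, against 51.7% of all probe sets (30.2% higher and 21.4% lower). The helicases and core spliceosome proteins held 6 rises and 9 falls among 38, the RNA-binding regulators of splicing 2 and 9 among 25, the exon junction and SR-related proteins 2 and 1 among 9, and the snRNP assembly factors 1 and 2 among 9. Of 6 tested kinases that phosphorylate SR proteins, Srpk2 rose by 0.48 ± 0.12 (adjusted p = 0.00583), Srpk1 fell by 0.50 ± 0.16 (adjusted p = 0.0205), and Clk1, Clk2, Clk3 and Clk4 did not pass. The falls with the smallest p were those of Sart1, which joins the tri-snRNP to the spliceosome (-1.49 ± 0.11, geometric means 286.9 against 808.3), Khsrp (-0.73 ± 0.10), the RNA helicase Dhx9 (-1.31 ± 0.20) and the exon regulator Rbm10 (-0.84 ± 0.13). The rises with the smallest p were those of the export helicase Ddx39a (0.88 ± 0.12), Wbp4 (0.99 ± 0.14), the U5 protein Txnl4a (0.86 ± 0.12) and the helicase Dhx38 (0.79 ± 0.11). In these 8 genes, chosen by their p, the 6 perirenal and 6 epididymal arrays did not overlap. Over the list this was so for 7 genes that were higher and 8 that were lower of 87, against 17.0% and 10.8% of all probe sets. No gene of this list passed for age in either depot. Sart1 had the smallest p in perirenal cells (0.65 ± 0.15 higher in old, adjusted p = 0.535), and Ptbp3 (-0.79 ± 0.20, adjusted p = 0.274) and Ilf2 (-0.55 ± 0.16, adjusted p = 0.348) had the smallest p in epididymal cells.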

How the data were processed

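Signals of 12 one-colour arrays were used. Per the submitters' processing notes, the authors made them with MAS5, with version and settings not given in the sources used here. All deposited values were linear intensity values for each probe set, with a trimmed mean of 500.1 to 500.2 on every array, so no further scaling was applied. Detection calls, scan dates and probe positions were not used here. Values were taken to log2 without an offset, with 2 signals of 0 set to 0.1. Of 15923 probe sets, 57 controls and those in the lowest 30% of mean log2 signal were left out, which left 11106. The probe table held 1 symbol for 12783 probe sets, more than 1 for 312 and no symbol for 2771, and genes were named only where it gave 1.

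Differences were fitted with limma 3.58.1 in R 4.3.3 on all 12 arrays, 1 mean per group, with an intensity trend and Benjamini-Hochberg adjustment over all probe sets tested, at a threshold of 0.05. Age averaged over depots was fitted on the mean of both arrays of each of 6 rats. Errors beside log2 differences are SE. The fit was tested on simulated data. Both depots came from the same rats, and arrays with the same age and replicate number in their titles were taken as those of 1 rat. Deviations from the group means correlated at 0.0393 to 0.201 between arrays paired in this way, and 6 of 6 rats matched their own other array best. Differences within a rat and fits with the rat as a block rest on this pairing. Fits with the rat as a block, other scalings, filters and offsets, the beta-actin 3'/5' ratio as a covariate and the omission of rats were run as alternatives.

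The genes, role groups and lists were chosen with earlier results of these data known. Named were Pnisr, Tra2a, Tra2b, Sfpq, Nono, Ptbp1, Scaf1 and Puf60, up to 8 largest rises and falls without overlap between depots, the 3 smallest p in each role group and the 3 smallest p in each direction of the other comparisons, and, of other splicing genes, up to 4 in each direction for depot and 2 for age. Others (among them Hnrnpm, Hnrnpr, Prpf19, Prpf38a, Snrpa, Snrpn and the genes at the ends of a range or with discordant probe sets) were chosen after their values were seen.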

Additional observations from a re-analysis of the deposited data

Results flagged for a closer look

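The depot difference had opposite signs in young and old rats for 3 of the 58 splicing factor genes, in every one of the 3 young and 3 old rats, against 1.27% of all probe sets (141). For Pnisr the differences within a rat (perirenal minus epididymal) were -0.96, -0.85 and -0.58 in young and 0.53, 0.13 and 0.41 in old rats, and the age by depot difference was 1.16 ± 0.27 (limma adjusted p = 0.839). For Prpf39 they were -0.85, -0.29 and -0.42 in young and 0.34, 0.15 and 0.28 in old rats, with 0.78 ± 0.22 (adjusted p = 0.846). For Hnrnpa0 they were 0.12, 0.16 and 0.11 in young and -0.26, -0.09 and -0.45 in old rats, with -0.40 ± 0.15 (adjusted p = 0.855). The young values of Hnrnpa0 lay close to 0, while those of Pnisr and Prpf39 passed on their own as lower in young perirenal cells. None of the 3 age by depot differences passed after adjustment.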

How the results depend on the processing

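Of the 21 genes called between depots, 12 kept call and sign in every refit that tested their brightest probe set, except with the beta-actin covariate. They were Hnrnpf, Hnrnpm, Hnrnpu, Hnrnpul1, Prpf3, Prpf40b, Prpf8, Scaf1, Sf3b1, Snrpb, Snrpb2 and U2af2. Scaf1 was not tested in the refit without the lowest 50% of signal, and it passed the reported filter only through its epididymal arrays. For 3 of the 12, Hnrnpu, Prpf3 and Sf3b1, the second probe set had the opposite sign, and the other 9 had 1 tested probe set. The second probe set of Prpf3 passed the filter only through its perirenal arrays. With arrays centred on their medians, 6 genes were higher and 29 lower in the mean of the ages. In young rats 27 passed, 21 of them lower, and in old rats 4 were higher and 21 lower. Of all probe sets 56.3%, 40% and 38.6% passed in these 3 comparisons, and 31.6%, 30.8% and 29% of those calls were higher. With the covariate the counts were 0 and 0 in the mean of the ages, 1 and 0 in young rats, and 0 and 0 in old rats, and this ratio by itself separates the depots. Of all probe sets 2.47%, 3.71% and 0.288% passed with it. Without the 2 arrays of the highest ratio, 15 passed in young rats, 7 of them lower, against 29.3% of all probe sets that passed. With the second brightest probe set for the 14 genes that have one, and the same probe set for the rest, 16 were higher in the mean. In young rats 11 and in old rats 15 were higher, against 10, 6 and 8 in the reported fits. Over the array too, further probe sets were more often higher in the mean (51.9% against 26.2% of the brightest) and less often lower (13.1% against 27.7%). These shares were not counted within 1 age. Leaving out each rat in turn gave 9 to 11 higher and 7 to 11 lower in the mean, 4 to 7 higher and 5 to 12 lower in young rats, and 5 to 9 higher and 2 to 5 lower in old rats. In these refits 43.7% to 46.5%, 20.8% to 35.1% and 16.4% to 31.5% of all probe sets passed.

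The age call of Pnisr in epididymal cells, 1 gene lower in old, became 0 after quantile normalisation, with no filter, with no intensity trend and without the 2 arrays of the highest ratio, and 0 to 1 when each rat was left out. Among the genes named by rule, with a value past the threshold on at least 1 side, signs turned for Srsf6 in the mean of the ages with centred arrays (-0.021), and with the second probe set of the gene for Srsf6 (-0.65), Tra2b (0.39), Prpf3 (2.05), Hnrnpu (0.26) and Sf3b1 (1.04) in the mean, for Hnrnpu (0.33) and Prpf3 (1.86) in young and for Hnrnpu (0.19) and Prpf3 (2.24) in old rats. Over all 14 genes with a second tested probe set, whether or not a value passed, the sign turned in 12, among them also Srsf2 (1.16), Hnrnpdl (0.47), Sf3a1 (0.22), Sfpq (0.16) and Srsf1 (-0.29). The values of the second Prpf3 probe set rest on a mean epididymal signal below the filter level. How often signs turned among all genes was not counted. The causes were not tested.

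With the rat as a fixed replicate block, 10 genes were higher and 11 lower in the mean, 7 and 12 in young, and 9 and 6 in old rats. As a random block (consensus correlation 0.101) the counts were 10 and 12, 7 and 11, and 8 and 4, against 54.1%, 37.9% and 35.3% of all probe sets that passed. The random block added Srsf5 in the mean (adjusted p = 0.0471) and Prpf19 in young rats (adjusted p = 0.0447). The block changed no call other than these and those given beside the results. A fixed block could not be fitted for age, since each rat has 1 age. Dim probe sets, such as that of Scaf1 in perirenal cells, limit how well a difference is measured.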

Other observations

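Some splicing factor genes could be read only from probe sets annotated with several symbols, which the name rule left out. A probe set shared by Hnrnpk, a binder of C-rich RNA, and its pseudogene had a depot difference of -0.23 (limma adjusted p = 0.137), and a second one -0.38 ± 0.08 (adjusted p = 0.0018). Those shared by Srsf3, the smallest SR protein, had -0.20 (adjusted p = 0.103) and -0.12 (adjusted p = 0.438). Those of the U1 protein gene Snrpc and the Sm protein gene Snrpg had 0.20 (adjusted p = 0.0914) and -0.29 (adjusted p = 0.0756). A tested probe set shared by Snurf and Snrpn had 0.37 (adjusted p = 0.22). Such a signal cannot be divided between the genes that share it.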
